A study of Mus musculus with 20 samples.

Results

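The 5 genes Per1, Per2, Cry1, Clock and Dbp, which belong to the circadian clock or are driven by it, were followed through different patterns of gonadotropin-releasing hormone (GnRH) in LbetaT2 cells. They are 5 of 8251 genes named on the array, measured by all probe sets that the platform annotation ties to their symbols, 7 of 12488. LbetaT2 is an established mouse line of pituitary gonadotropes, the cells that secrete luteinizing and follicle-stimulating hormone; it arose from a tumour driven by the large T antigen under the luteinizing hormone beta promoter. Cells grown on microcarrier beads were kept in serum-free medium overnight, perifused in columns and sampled as total RNA after 4 h, and 20 Affymetrix arrays were made from it. The 10 groups of 2 arrays were unstimulated cells, 1, 2, 4 or 8 pulses of 100 nM GnRH, tonic (continuous) 100 nM GnRH, 1, 4 or 8 pulses of 10 nM GnRH, and tonic 10 nM GnRH. Each pulse lasted 2 min, and repeated pulses came 118, 58 or 28 min apart. All groups shared the cell line, the serum withdrawal and the perifusion, and no group carried a genetic change. The arrays of a group are told apart by a letter in the sample code, A and D for unstimulated and 100 nM arrays and B and C for 10 nM arrays.

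The mammalian clock is a transcriptional feedback loop. CLOCK pairs with BMAL1 (gene Arntl) and binds E-boxes, short CACGTG elements, in the promoters of the Period and Cryptochrome genes; the PER and CRY proteins then return to the nucleus and repress CLOCK and BMAL1. The same pair drives Dbp, which encodes an activator of the PAR bZIP family that binds D-boxes together with its relative TEF, while NFIL3 represses from the same elements. Per1 is also an early response gene: its promoter holds cAMP response elements through which CREB raises it within hours of receptor stimulation, and GnRH is known to induce it in gonadotropes.

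The promoters are shown first. The loop is known to reach the Period and Cryptochrome genes through E-boxes, and a receptor signal to reach Per1 through cAMP response elements. RefSeq windows (GRCm38.p6) were matched for 4 of the 5 genes, Per1, Cry1, Dbp and Clock, in 7 windows. The 250 bases before each annotated start site were searched on both strands for CACGTG (E-box), TGACGTCA (full cAMP response element), its core TGACG, which every full element also contains, and the D-boxes TTATGTAA and TTACGTAA. Capitals mark the matches in the windows of Per1, Cry1 and Dbp, each written 5′ to 3′ on the strand of the gene.
Per1, upstream start, chr11:69098699-69098948, plus strand: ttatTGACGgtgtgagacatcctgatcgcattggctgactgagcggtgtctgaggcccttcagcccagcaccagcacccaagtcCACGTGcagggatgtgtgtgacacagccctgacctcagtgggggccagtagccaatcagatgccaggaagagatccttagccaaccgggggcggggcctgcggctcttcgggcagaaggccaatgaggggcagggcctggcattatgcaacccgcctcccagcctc
Per1, downstream start, chr11:69099902-69100151, plus strand: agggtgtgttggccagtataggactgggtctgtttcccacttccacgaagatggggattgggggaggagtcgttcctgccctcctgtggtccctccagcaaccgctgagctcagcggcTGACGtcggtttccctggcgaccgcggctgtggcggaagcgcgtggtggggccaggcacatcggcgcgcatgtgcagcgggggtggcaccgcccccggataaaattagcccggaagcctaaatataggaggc
Cry1, chr10:85185055-85185304, minus strand: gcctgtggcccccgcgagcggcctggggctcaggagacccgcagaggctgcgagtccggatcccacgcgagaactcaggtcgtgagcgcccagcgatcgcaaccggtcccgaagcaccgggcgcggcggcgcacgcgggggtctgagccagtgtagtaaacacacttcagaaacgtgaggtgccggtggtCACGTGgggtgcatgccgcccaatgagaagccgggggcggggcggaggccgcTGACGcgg
Dbp, chr7:45704997-45705246, plus strand: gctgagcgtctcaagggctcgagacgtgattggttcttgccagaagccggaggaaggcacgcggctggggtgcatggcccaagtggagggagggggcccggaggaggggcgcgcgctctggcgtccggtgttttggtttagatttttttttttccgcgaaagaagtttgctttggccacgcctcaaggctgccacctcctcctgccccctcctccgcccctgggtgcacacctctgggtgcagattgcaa

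The upstream window of Per1 held an E-box 166 bases and a TGACG core 246 bases before the start, and its downstream window held a TGACG core at 132 bases. Cry1 held an E-box at 60 bases and a TGACG core at 8 bases. The Dbp window and the 3 Clock windows held none of these motifs, and none of the 7 windows held the full cAMP response element or a D-box. Bases further upstream or within the genes were not searched, so a missing match does not show that a gene lacks the element. Among 32851 windows of the same length, 6.02% held an E-box, 17.8% the TGACG core, 1.55% the full element and 0.931% a D-box, so the core in particular is common. These matches describe letters only, and binding was not measured here.

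Expression was read as the authors' probe set signal, an intensity on a linear scale. Differences were tested with limma on log2(signal + 166.8), in 1 fit over all 20 arrays, with two-sided p-values adjusted by the Benjamini-Hochberg method over the 8491 probe sets that passed a filter on low signal. A change is called at an adjusted p under 0.05, and fold changes are on the log2(signal + 166.8) scale, which understates the change of dim probe sets. Of the 7 probe sets 5 passed the filter, 1 for each gene. The other 2 both belong to Cry1 and stayed below the filter signal of 427 on all 20 arrays, at 26.3 to 178.3 (94421_r_at) and 1.6 to 90.7 (161225_r_at). The Cry1 set that passed, 94420_f_at, carries a suffix for probes that may match related transcripts, so its values are uncertain in that respect.

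Array medians ran from 705 to 836 and trimmed means from 2501.25 to 2501.75. The 3′ to 5′ ratio of the Gapdh control sets, which rises when RNA is degraded, stood at 1.69 on the 8 pulses 100 nM array A, 1.21 and 1.23 on the 4 pulses 100 nM arrays A and D, and 0.9 to 1.08 on the other 17. Of 8 gonadotrope markers 7 passed the filter and Fshb did not; their summed signal was 175000 to 191000 in unstimulated cells, 182000 to 256000 at 100 nM and 179000 to 218000 at 10 nM. Of 6 markers of other pituitary cells 4 passed, with Pomc and Tshb below the filter, and 1 of these 4 was called higher and 1 lower over the 100 nM patterns; their summed signal was 4300 to 4450, 4290 to 5740 and 3950 to 6760 in the same order. Of 5 macrophage markers only Cd68 and Csf1r passed, with Adgre1, Lyz2 and Ptprc below the filter, and the summed signal was 1250 to 1830 in unstimulated cells, 1490 to 3950 at 100 nM and 1050 to 2730 at 10 nM. Of 5 fibroblast and endothelial markers 4 passed, with Col3a1 below the filter. The summed signal was 12400 to 12700 in unstimulated cells, 9740 to 14500 at 100 nM and 9850 to 15100 at 10 nM. Over the 100 nM patterns limma also called 1 of 7 gonadotrope and 1 of 2 macrophage markers higher and 0 lower, and 0 of 4 fibroblast and endothelial markers. Of all probe sets 6.37% were called higher and 7.84% lower there. The part of these markers in the results was not tested. In bulk RNA, fewer cells of a type and less RNA per cell cannot be told apart. For 8 of the 20 samples title and characteristics give different pulse numbers. Titles were used; with groups taken from the characteristics 0 of the 16 calls described below on the 5 genes remained, and with only the 12 samples whose labels agree 3 of the 16 remained. No label states whether paired arrays were separate cultures, so the p-values reflect the spread between samples alone, which may be technical.

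Over all patterns of 100 nM GnRH, Cry1 rose and Dbp fell, while Per1, Per2 and Clock did not pass the test over the average of the patterns. The 2 calls among the 5 genes stand beside a background of 14.2% of all probe sets called in this comparison, 6.37% higher and 7.84% lower. Per1 rose with 4 pulses, 8 pulses and tonic exposure taken separately. All comparisons against unstimulated cells share the same 2 unstimulated arrays, and these differed from each other for several clock genes, as the plot of signals by array shows.

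**Figure D1:**
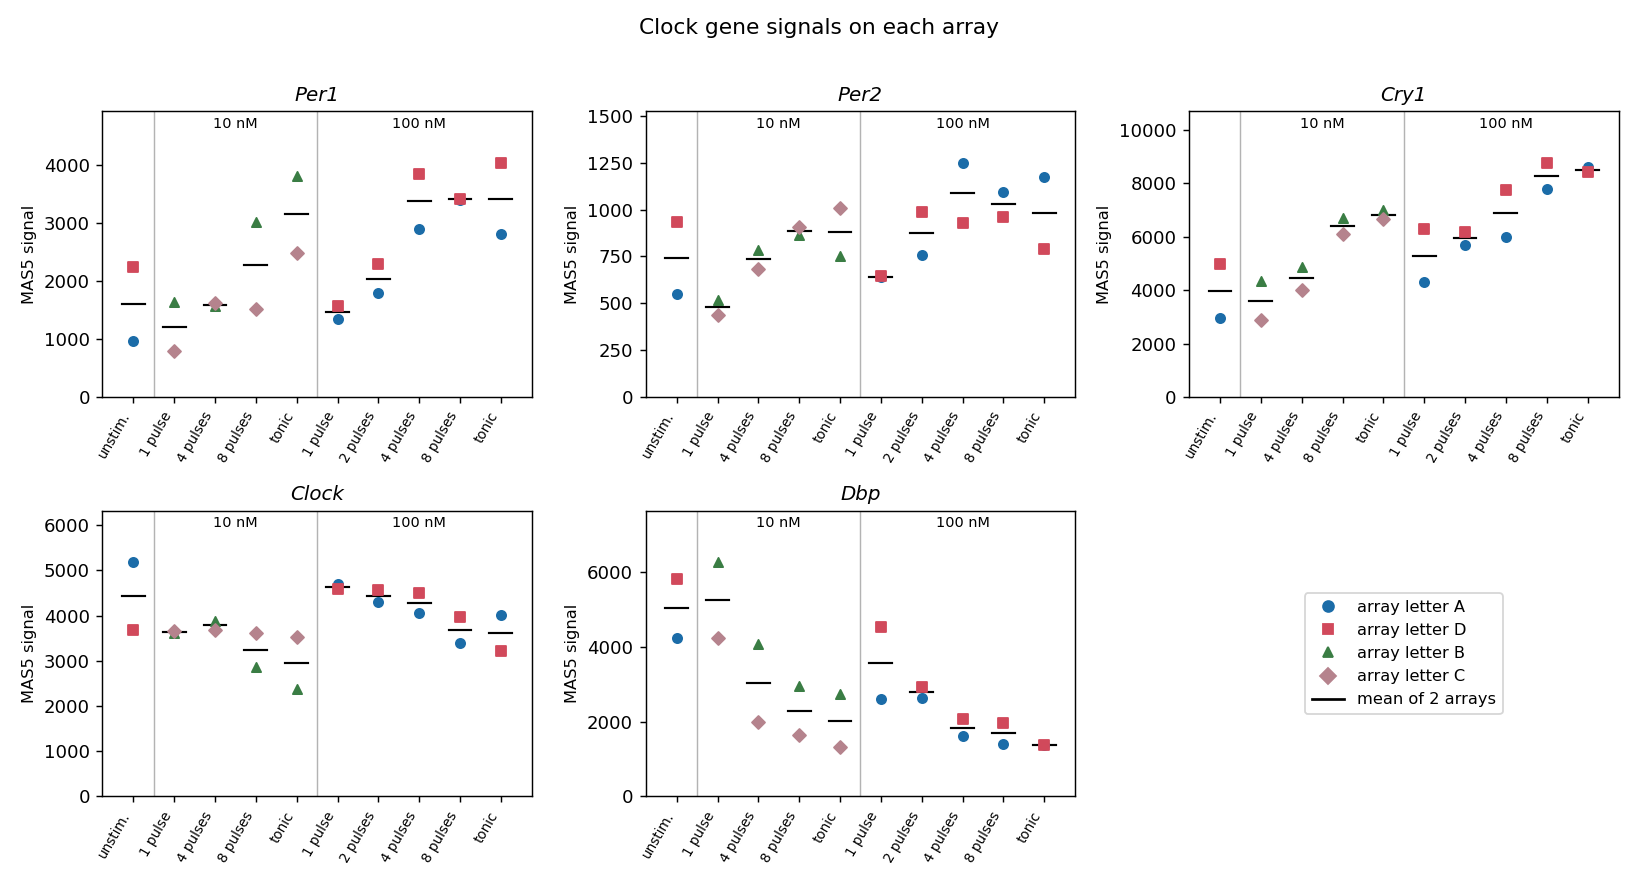
Signal (intensity, linear scale from 0) of the tested probe set of each of the 5 clock genes on all 20 arrays, by group; points are arrays, coloured by the letter of the sample code, and the bar is the mean of the 2 arrays. Dbp stepped down from 4246 and 5809 in unstimulated cells to 1377 and 1374 under tonic 100 nM GnRH, while Cry1 stepped up from 2969 and 4964 to 8604 and 8419.

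Dbp, the D-box activator and a direct output of CLOCK and BMAL1, had the largest average change of the 5 genes at 100 nM with all arrays in the fit; without unstimulated array D it was smaller (-0.96) than those of Per1 (1.28) and Cry1 (1.16). Its signal was 4246 (array A) and 5809 (D) in unstimulated cells, 2595 and 4525 after 1 pulse of 100 nM, 2637 and 2930 after 2 pulses, 1612 and 2063 after 4 pulses, 1405 and 1962 after 8 pulses, and 1377 and 1374 under tonic 100 nM. Of the 10 arrays at 100 nM, 9 lay below both unstimulated arrays, the exception being 1 pulse array D. Averaged over the 100 nM patterns, Dbp was lower by 1.18 ± 0.27 (SE) on the log2 scale, or 2.27-fold, with a limma adjusted p of 0.00759. Against the unstimulated array of the same letter it was lower on 5 of 5 arrays A, by 0.65 to 1.52 on the log2 scale, and on 5 of 5 arrays D, by 0.35 to 1.95. Without unstimulated array D the change was -0.96 with an adjusted p of 0.159.

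By pattern, the difference of Dbp from unstimulated cells was -0.51 ± 0.35 after 1 pulse and -0.80 ± 0.35 after 2 pulses, neither of which passed, then -1.37 (adjusted p = 0.0158) after 4 pulses, -1.49 (0.00884) after 8 pulses and -1.74 (0.00183, 3.33-fold lower) under tonic 100 nM, each ± 0.35. The tonic call held when any 1 of the 20 arrays was left out. The call at 4 pulses was lost without 4 pulses array A (-1.20, adjusted p = 0.0815), 4 pulses array D (-1.53, 0.074) or unstimulated array D (-1.15, 0.133). The call at 8 pulses was lost without 8 pulses array A, the array of the highest Gapdh ratio (-1.27, 0.0844), without unstimulated array D (-1.27, 0.0901), or without the 3 arrays of raised Gapdh ratio (-1.27, 0.0919).

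At 10 nM the signal of Dbp was 6258 (array B) and 4233 (C) after 1 pulse, 4065 and 1992 after 4 pulses, 2944 and 1648 after 8 pulses, and 2741 and 1309 under tonic exposure. After 1 pulse of 10 nM, with 1 array above and 1 below both unstimulated arrays, the difference was 0.05 ± 0.35 (95% interval -0.69 to 0.80). The arrays of the other 10 nM patterns were all below both unstimulated arrays, and array C was below array B in all 4 groups. The fall was called under tonic 10 nM alone (-1.31 ± 0.35, adjusted p = 0.0306), and there it was lost without tonic 10 nM array C (-0.82, 0.261), unstimulated array A (-1.53, 0.0676) or unstimulated array D (-1.09, 0.185). It was also lost with no filter on low signal (adjusted p = 0.0641) and with no intensity trend (0.0553). In the order of the 10 group means Dbp was highest after 1 pulse of 10 nM and in unstimulated cells and lowest under tonic 100 nM, and the arrays of neighbouring groups overlapped in 8 of 9 steps.

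Cry1, a repressor of CLOCK and BMAL1, moved the other way. Its signal was 2969 (array A) and 4964 (D) in unstimulated cells, 4315 and 6274 after 1 pulse of 100 nM, 5699 and 6193 after 2 pulses, 6000 and 7743 after 4 pulses, 7772 and 8765 after 8 pulses, and 8604 and 8419 under tonic 100 nM. Of the 10 arrays 9 lay above both unstimulated arrays, and 1 pulse array A lay between them. Over the 100 nM patterns Cry1 rose by 0.80 ± 0.18 on the log2 scale, 1.74-fold, with an adjusted p of 0.0058. It was higher than the unstimulated array of its letter on 5 of 5 arrays A (0.52 to 1.48) and 5 of 5 arrays D (0.31 to 0.80). Without unstimulated array A, the lower of the pair, the rise was 0.45 with an adjusted p of 0.234.

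By pattern the rise of Cry1 was 0.42 ± 0.23 after 1 pulse and 0.61 ± 0.23 after 2 pulses, which did not pass, and 0.80 (adjusted p = 0.0271) after 4 pulses, 1.07 (0.00456) after 8 pulses and 1.11 (0.0021) under tonic 100 nM, each ± 0.23. All 3 calls were lost without unstimulated array A, at 0.45 (0.287), 0.71 (0.0862) and 0.76 (0.0541), and that at 4 pulses also without 4 pulses array D (0.62, 0.258) or with only the compared groups in the fit (0.80, 0.0574). At 10 nM the signal was 4324 (array B) and 2885 (C) after 1 pulse, 4864 and 4018 after 4 pulses, 6716 and 6096 after 8 pulses, and 6992 and 6650 under tonic exposure. Both 8-pulse arrays and both tonic arrays at 10 nM were above both unstimulated arrays, and those after 1 or 4 pulses were not.

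Of the 10 nM patterns the test called Cry1 under tonic exposure (0.80 ± 0.23, adjusted p = 0.041), beside 0.71 with an adjusted p of 0.134 after 8 pulses. That call was near the threshold: it was lost without unstimulated array A (0.45, 0.406), tonic 10 nM array B (0.77, 0.212) or C (0.84, 0.109), and at adjusted p-values of 0.05 to 0.0514 without either 8 pulses 10 nM array or either 2 pulses 100 nM array. It was lost as well with no filter (0.0685), with no intensity trend (0.0701) and with only the compared groups in the fit (0.0952). Cry1 was highest under tonic and 8 pulses of 100 nM and lowest in unstimulated cells and after 1 pulse of 10 nM, with overlapping arrays in 8 of 9 neighbouring steps; the gap lay between 8 pulses 100 nM and tonic 10 nM.

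Per1, a Period gene known to respond early to receptor signals, was higher with frequent pulses or continuous hormone. Its signal was 964 (array A) and 2252 (D) in unstimulated cells, 1345 and 1574 after 1 pulse of 100 nM, 1800 and 2288 after 2 pulses, 2904 and 3851 after 4 pulses, 3403 and 3422 after 8 pulses, and 2809 and 4042 under tonic 100 nM. The 6 arrays of the last 3 patterns all lay above both unstimulated arrays, whereas those after 1 pulse lay between them. The average over the 100 nM patterns was 0.74 ± 0.27 higher with an adjusted p of 0.0799; without unstimulated array A it was 0.19 (adjusted p = 0.794), and without unstimulated array D 1.28 (0.0302). Against the unstimulated array of the same letter Per1 was higher on 5 of 5 arrays A (0.42 to 1.66) and on 4 of 5 arrays D (-0.47 to 0.80).

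Taken by pattern, Per1 differed from unstimulated cells by -0.03 after 1 pulse and 0.41 after 2 pulses, which did not pass. It rose by 1.09 (adjusted p = 0.045) after 4 pulses, 1.11 (0.0406) after 8 pulses and 1.10 (0.0332) under tonic 100 nM, all ± 0.35. These 3 calls lie close to the threshold. Without unstimulated array A the rises were 0.54, 0.57 and 0.55 with adjusted p-values of 0.41, 0.395 and 0.374, and with no filter or no intensity trend the adjusted p-values were 0.054 to 0.0868.

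Other arrays also decided the Per1 calls. The call at 4 pulses was lost without 4 pulses array A (1.28, adjusted p = 0.0617) or D (0.89, 0.299), and at 0.0519 to 0.0531 without either array of 1 or 2 pulses of 100 nM or of 4 pulses of 10 nM. That at 8 pulses was lost without 8 pulses array A (1.12, 0.136) or D (1.11, 0.113), without the 3 arrays of raised Gapdh ratio (1.12, 0.142) and with only the compared groups in the fit (0.0734). The tonic call was lost without tonic array D (0.85, 0.216) and with only the compared groups (0.0623).

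At 10 nM the signal of Per1 was 1634 (array B) and 788 (C) after 1 pulse, 1562 and 1629 after 4 pulses, 3027 and 1519 after 8 pulses, and 3823 and 2487 under tonic exposure. Only the tonic arrays at 10 nM both lay above both unstimulated arrays. The difference was -0.34 after 1 pulse, 0.09 after 4, 0.49 after 8 and 0.98 (adjusted p = 0.104) under tonic 10 nM, and none of the 4 passed the test. Per1 was highest after 8 pulses, tonic exposure and 4 pulses of 100 nM and lowest after 1 pulse of 10 nM, with overlapping arrays in 8 of 9 neighbouring steps.

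Per2, the other Period gene, passed in none of the 22 comparisons. Its signal was 551 (array A) and 936 (D) in unstimulated cells, 640 and 644 after 1 pulse of 100 nM, 758 and 990 after 2 pulses, 1249 and 929 after 4 pulses, 1093 and 962 after 8 pulses, and 1175 and 791 under tonic 100 nM. At 10 nM it was 518 (B) and 437 (C) after 1 pulse, 787 and 685 after 4 pulses, 862 and 908 after 8 pulses, and 751 and 1006 under tonic exposure. The arrays after 1 pulse of 10 nM were the only pair to lie below both unstimulated arrays, and those after 8 pulses of 100 nM the only pair to lie above both. The differences from unstimulated cells at 100 nM were -0.14, 0.22, 0.49, 0.42 and 0.35 from 1 pulse to tonic exposure, each ± 0.24, and their average was 0.27 ± 0.19 (adjusted p = 0.378; 95% interval -0.13 to 0.67). Per2 was higher than its unstimulated partner on 5 of 5 arrays A and on 2 of 5 arrays D.

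Clock, which encodes the activator that the PER and CRY proteins repress, had the smallest average difference of the 5 genes at 100 nM. Its signal was 5178 (array A) and 3689 (D) in unstimulated cells, 4692 and 4581 after 1 pulse of 100 nM, 4295 and 4574 after 2 pulses, 4065 and 4492 after 4 pulses, 3385 and 3971 after 8 pulses, and 4004 and 3213 under tonic 100 nM. Of these 10 arrays 8 lay between the 2 unstimulated arrays and 2 lay below both. The average difference was -0.09 ± 0.15 with an adjusted p of 0.755 and a 95% interval of -0.41 to 0.23. At 10 nM the signal was 3626 (B) and 3653 (C) after 1 pulse, 3890 and 3686 after 4 pulses, 2869 and 3608 after 8 pulses, and 2374 and 3517 under tonic exposure, where the difference was -0.57 ± 0.20 and did not pass (adjusted p = 0.0888). The sign of the 100 nM difference depended on the letter: Clock was lower on 5 of 5 arrays A and higher on 4 of 5 arrays D than the unstimulated array of that letter.

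Counted by pattern, 0 of the 5 genes were called after 1 pulse of 100 nM (0 at an unadjusted p under 0.05) and 0 after 2 pulses (2 at an unadjusted p under 0.05, Dbp and Cry1), where limma called 0% and 0.624% of all probe sets. Of the 8491 probe sets, 664 and 773 were at an unadjusted p under 0.05 in these 2 patterns. After 4 pulses, 8 pulses and tonic 100 nM it called 3 of 5 each, Per1, Cry1 and Dbp, beside 14.9%, 14.3% and 20.4% of all probe sets. At 10 nM limma called 0 of 5 after 1, 4 and 8 pulses (0, 1 and 3 at an unadjusted p under 0.05) and 2 of 5 under tonic exposure, Cry1 and Dbp. The shares called over all probe sets were 0%, 0.0589%, 2.23% and 7.41%. After 1, 4 and 8 pulses 708, 1109 and 1238 of the 8491 probe sets were at an unadjusted p under 0.05. Over all 10 nM patterns 0 of 5 passed, beside 1.91% of all probe sets, and 3 were at an unadjusted p under 0.05, beside 1517 of 8491. There the differences were -0.78 for Dbp, 0.40 for Cry1, -0.36 for Clock, 0.31 for Per1 and 0.00 for Per2. The arrays at 10 nM carry other letters than the unstimulated arrays, so hormone and letter cannot be told apart in the 10 nM comparisons with unstimulated cells.

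**Figure D2:**
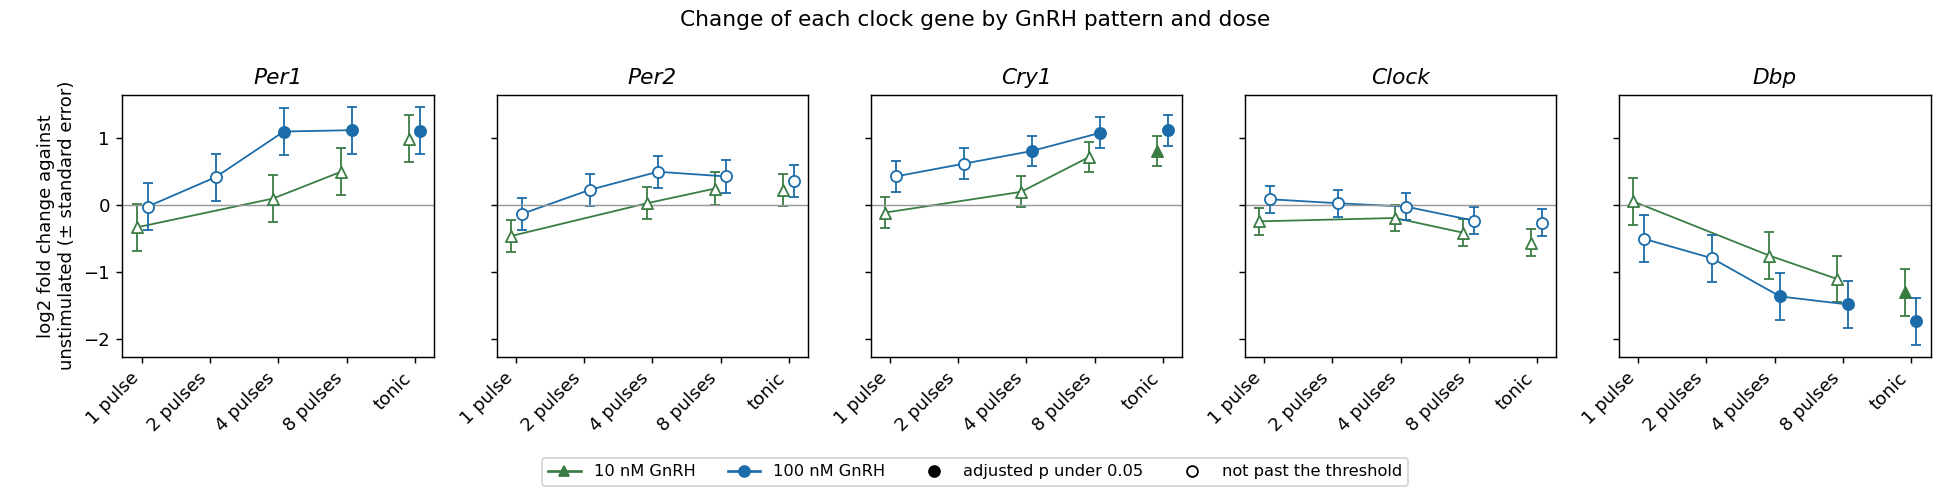
Difference from unstimulated cells in log2(signal + 166.8), ± SE from the fit, for each clock gene by GnRH pattern, at 100 nM and 10 nM; filled points have an adjusted p under 0.05 and lines join the pulse numbers. Dbp went from -0.51 after 1 pulse to -1.74 under tonic 100 nM, and Clock stayed between 0.08 and -0.27 at that dose.

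The slope over pulse number within a dose does not use the unstimulated arrays. They still enter the shared estimate of spread behind its SE and p-value. RNA was taken at 4 h, so pulse number goes with the interval between pulses, the total time of exposure and the time since the last pulse. These cannot be told apart. At 100 nM, Per1 rose by 0.41 ± 0.11 on the log2 scale for each doubling of pulse number from 1 to 8 (adjusted p = 0.0311), the only one of the 5 genes called where 6.89% of all probe sets were (3.67% rising and 3.22% falling). That call was lost, with slopes of 0.38 to 0.44 and adjusted p-values of 0.0559 to 0.148, without either array of 1 pulse or of 8 pulses, 2 pulses array A or 4 pulses array D. Without the 3 arrays of raised Gapdh ratio, which removes the group of 4 pulses, it was 0.38 with an adjusted p of 0.211. With no filter the adjusted p was 0.0681, and with no intensity trend 0.0558. The slopes of the other genes were -0.35 ± 0.11 for Dbp (adjusted p = 0.0698), 0.21 ± 0.07 for Cry1 (0.0898), 0.19 ± 0.08 for Per2 (0.147) and -0.10 ± 0.06 for Clock (0.374).

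At 10 nM the slopes were -0.39 ± 0.12 for Dbp (adjusted p = 0.0883), 0.26 ± 0.08 for Cry1 (0.085), 0.24 ± 0.08 for Per2 (0.144), 0.27 ± 0.12 for Per1 (0.291) and -0.04 ± 0.06 for Clock (0.828). None of the 5 passed, beside 2.10% of all probe sets called by limma. At an unadjusted p under 0.05 were 4 of the 5, beside 1217 of 8491 probe sets. With the letters as a fixed replicate block, Dbp and Cry1 passed, at -0.39 (adjusted p = 0.000516) and 0.26 (0.0111). That fit paired A with D as well as B with C, and the pairing check described below counted only B and C as paired. Without 4 pulses 10 nM array B the Dbp slope without the block was -0.42 with an adjusted p of 0.0473. Relative to the 1-pulse array of the same letter, Dbp was lower on 3 of 3 arrays B (by 0.60 to 1.14) and 3 of 3 arrays C (by 1.03 to 1.58), and Cry1 was higher on 3 of 3 arrays of each letter.

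The slopes at both doses were compared directly over 1, 4 and 8 pulses. The difference, 100 nM minus 10 nM, was 0.14 for Per1 (95% interval -0.20 to 0.48), -0.03 for Per2 (-0.27 to 0.20), 0.05 for Dbp (-0.29 to 0.40), -0.06 for Clock (-0.25 to 0.14) and -0.05 for Cry1 (-0.27 to 0.18). Limma called 0 of 5, beside 0.0118% of all probe sets, and 0 were at an unadjusted p under 0.05, beside 332 of 8491. These intervals leave room for slopes that differ by as much as the slopes themselves.

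Continuous hormone was set against the most frequent pulses. At 100 nM tonic minus 8 pulses was -0.02 for Per1 (95% interval -0.75 to 0.72), -0.07 for Per2 (-0.58 to 0.44), -0.25 for Dbp (-0.99 to 0.50), -0.03 for Clock (-0.44 to 0.38) and 0.04 for Cry1 (-0.44 to 0.53). At 10 nM it was 0.49 for Per1 (-0.25 to 1.23), -0.02 for Per2 (-0.53 to 0.49), -0.20 for Dbp (-0.94 to 0.55), -0.15 for Clock (-0.56 to 0.27) and 0.09 for Cry1 (-0.40 to 0.58). Limma called 0 of the 5 genes at either dose, beside 0.0118% and 0% of all probe sets at 100 nM and 10 nM. At an unadjusted p under 0.05 were 0 of the 5 at either dose, beside 328 and 220 of 8491 probe sets. The intervals are wide, so the test does not show that tonic and pulsed hormone act alike on these genes.

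The larger dose went with higher Per1 and Cry1. Over the patterns given at both doses (1, 4 and 8 pulses and tonic), 100 nM minus 10 nM was 0.45 ± 0.12 for Cry1 (adjusted p = 0.0085) and 0.51 ± 0.18 for Per1 (0.0418). It was -0.49 ± 0.18 for Dbp (0.0521), 0.28 ± 0.12 for Per2 (0.11) and 0.24 ± 0.10 for Clock (0.0806). The 2 calls of 5 stand beside 23.6% of all probe sets, 10.9% higher and 12.7% lower at 100 nM. Dose and letter cannot be told apart here. Without the 3 arrays of raised Gapdh ratio neither gene passed, at 0.43 (adjusted p = 0.0814) for Cry1 and 0.35 (0.384) for Per1; this leaves out 4 pulses at both doses.

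The Per1 call in the dose comparison was lost, at 0.40 to 0.54 with adjusted p-values of 0.0567 to 0.117, without any 1 of 11 arrays. These were arrays A and D of 1 pulse and 8 pulses and array D of 4 pulses and of tonic exposure at 100 nM, and array C of every 10 nM group and array B of 4 pulses. It was also lost with equal array medians (0.47, 0.0609), no filter (0.0812) and no intensity trend (0.0632), and with the letter as a random replicate block (0.51, 0.0907). Within single patterns the dose comparison called 0 of the 5 genes after 1 pulse, 4 pulses, 8 pulses or tonic exposure (1, 2, 0 and 0 at an unadjusted p under 0.05), beside 0.165%, 6.36%, 0.707% and 0.801% of all probe sets. In the same order 806, 1846, 1169 and 1197 of the 8491 probe sets were at an unadjusted p under 0.05.

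Further genes of the clock were taken from a list of 25, of which 17 were on the array and 16 passed the filter; Npas2, a relative of Clock, did not. Over all 100 nM patterns 1 of the 16 rose, Nfil3, and 3 fell, Tef, Btrc and Cipc. Limma called 6.37% of all probe sets higher and 7.84% lower in this comparison. The median over the 16 was -0.08, beside -0.053 over all probe sets tested. The genes that changed were thus the D-box factors Nfil3 and Tef, Btrc, which encodes the F-box protein that marks PER proteins for degradation, and Cipc, which encodes an inhibitor of CLOCK.

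Nfil3, the repressor at D-boxes, rose while the activators Dbp and Tef fell. Its signal was 401 (array A) and 1634 (D) in unstimulated cells, 1343 and 1639 after 1 pulse of 100 nM, 1767 and 3087 after 2 pulses, 3516 and 4045 after 4 pulses, 3231 and 6421 after 8 pulses, and 5277 and 7619 under tonic 100 nM. Of these 10 arrays 9 lay above both unstimulated arrays. The rise was 1.78 ± 0.33 over the patterns (adjusted p = 0.00171) and 2.69 ± 0.43 under tonic 100 nM (0.000245). A second Nfil3 set, 101805_f_at, rose by 1.18 ± 0.37 (0.0398).

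The average rise of Nfil3 was 0.95 with an adjusted p of 0.126 without unstimulated array A, while its calls after 8 pulses of 100 nM and under tonic exposure at either dose held when any 1 array was left out. At 10 nM it was called after 8 pulses (1.94, adjusted p = 0.0215) and under tonic exposure (2.43, 0.00211). The call after 8 pulses was lost without unstimulated array A (1.11, 0.268) or 8 pulses 10 nM array B (1.59, 0.233), and by the second set (1.48, 0.134). Nfil3 also rose with pulse number, by 0.52 for each doubling at 100 nM (0.0264) and 0.67 at 10 nM (0.0145); by the second set these slopes were 0.30 (0.277) and 0.43 (0.183). The slope at 100 nM was lost without 1 pulse array A (0.48, 0.133) or D (0.56, 0.0868) or 8 pulses array D (0.38, 0.162), and that at 10 nM without 8 pulses array B (0.57, 0.116) or 1 pulse array C (0.51, 0.324).

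Tef, the relative of Dbp, had signals of 3205 (A) and 6629 (D) in unstimulated cells and of 1727 and 1477 under tonic 100 nM, with 8 of the 10 arrays at 100 nM below both unstimulated arrays. It fell by 0.97 ± 0.23 on the log2 scale over the 100 nM patterns (adjusted p = 0.00855); without unstimulated array D, the higher of the pair, the change was -0.47 (0.356). By pattern it was called at -1.14 after 4 pulses, -1.35 after 8 pulses and -1.44 under tonic 100 nM. With groups taken from the characteristics the sign turned after 8 pulses (0.06) and under tonic 100 nM (0.07). Those calls were also lost without unstimulated array D, at -0.64 (0.246), -0.84 (0.119) and -0.93 (0.0574). The call at 4 pulses was lost without 4 pulses array A (-1.02, 0.0814) or D (-1.27, 0.0785) as well, and that at 8 pulses without the 3 arrays of raised Gapdh ratio (-1.24, 0.054).

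Btrc fell by 0.65 ± 0.16 over the 100 nM patterns (adjusted p = 0.0109) and by 1.17 under tonic 100 nM (0.000596), with 10 of 10 arrays below both unstimulated arrays. Its second set fell by 0.75 ± 0.19 (0.0122). Cipc fell by 0.43 ± 0.13 (0.0306), again with 10 of 10 arrays below. Arntl also had 10 of 10 arrays at 100 nM below both unstimulated arrays, although its average difference did not pass the test. The share of all probe sets separated in this way was not counted, so the separation adds no support to these calls. The Btrc average was lost without unstimulated array A (-0.65, 0.0955) or D (-0.64, 0.117), and the tonic call held without any 1 array. The Cipc average was lost without unstimulated array A (-0.53, 0.0885) or D (-0.34, 0.303), with quantile normalisation (-0.34, 0.0836) and with equal array medians (-0.40, 0.0533). Btrc was also called lower after 4 pulses (-0.69) and 8 pulses (-0.85) of 100 nM, and Cipc after 8 pulses (-0.69) and under tonic 100 nM (-0.70); each of these 4 calls was lost without unstimulated array D, at adjusted p-values of 0.0589 to 0.132. The slope of Cipc with pulse number at 100 nM was -0.19 (0.0336), and -0.17 (0.0576) with quantile normalisation.

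**Figure D3:**
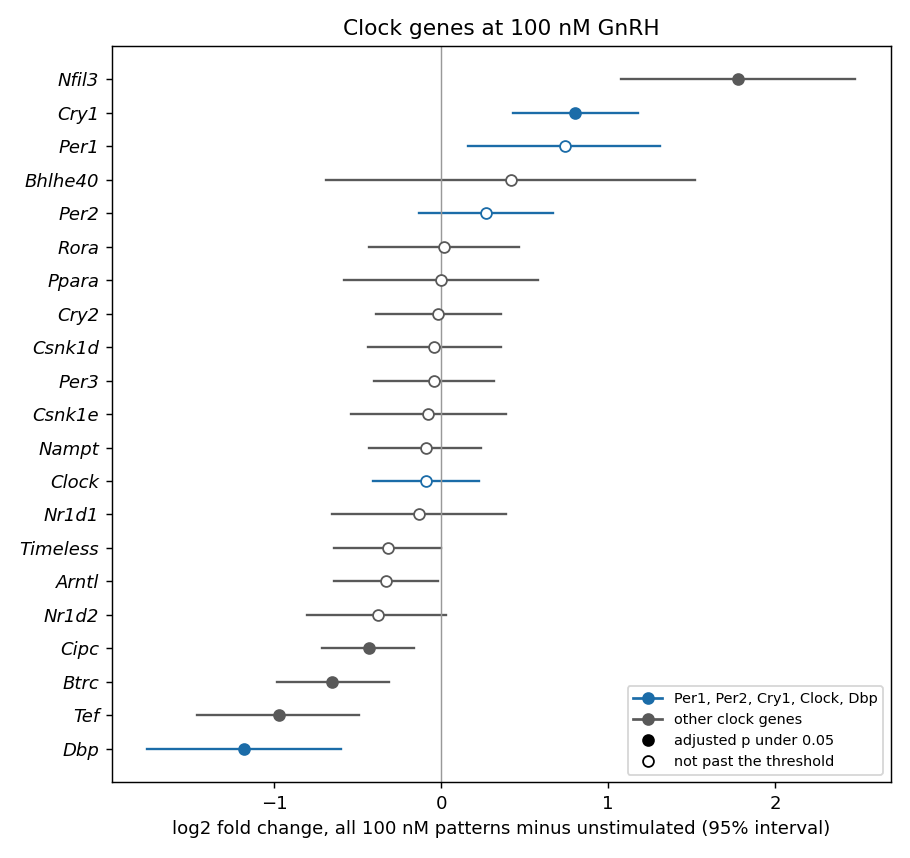
Difference between all 100 nM patterns and unstimulated cells in log2(signal + 166.8), with its 95% interval, for the 21 clock genes tested (5 members and 16 others); filled points have an adjusted p under 0.05. Nfil3 stands highest at 1.78 and Dbp lowest at -1.18, with Cry1 at 0.80 and Tef at -0.97.

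The rest of the loop did not pass over the 100 nM patterns. Arntl, the partner of Clock, differed by -0.33 ± 0.15 (adjusted p = 0.154), Nr1d1, the REV-ERB repressor of Arntl, by -0.13 (0.788), Cry2 by -0.02 and Per3 by -0.04. In single patterns 3 more genes were called lower, Nr1d2 after 4 pulses (-0.82, adjusted p = 0.0369) and Timeless (-0.67, 0.0201) and Arntl (-0.56, 0.0466) under tonic 100 nM. After 4 pulses limma called 3 of the 16 genes lower and 1 higher, beside 14.9% of all probe sets in either direction. Under tonic 100 nM it called 5 of the 16 lower and 1 higher, beside 20.4% of all probe sets. Without tonic array D the Arntl difference was -0.19 (0.575). That for Nr1d2 was -0.64 (0.289) without 4 pulses array D, and that for Timeless was -0.58 (0.132) without tonic array A and -0.47 (0.202) without unstimulated array D. With quantile normalisation none of these 3 passed, at adjusted p-values of 0.075, 0.0653 and 0.122 for Nr1d2, Timeless and Arntl.

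Bhlhe40, a repressor that competes for E-boxes, differed between the 2 arrays of every group. Its signal was 1655 (array A) and 8240 (D) in unstimulated cells and 6051 and 7776 under tonic 100 nM, and the average difference was 0.42 ± 0.53 (adjusted p = 0.659). Over all 10 nM patterns limma called 0 of the 16 genes and 1.91% of all probe sets; 4 of the 16, and 1517 of 8491 probe sets, were at an unadjusted p under 0.05. Nfil3 stood nearest, at 1.31 (0.0543). In the dose comparison 2 of the 16 were called lower at 100 nM, Tef (-0.54, adjusted p = 0.0135) and Btrc (-0.46, 0.00362), and 0 higher. Of all probe sets 12.7% were called lower and 10.9% higher. Dose and letter cannot be told apart for these genes either.

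**Figure D4:**
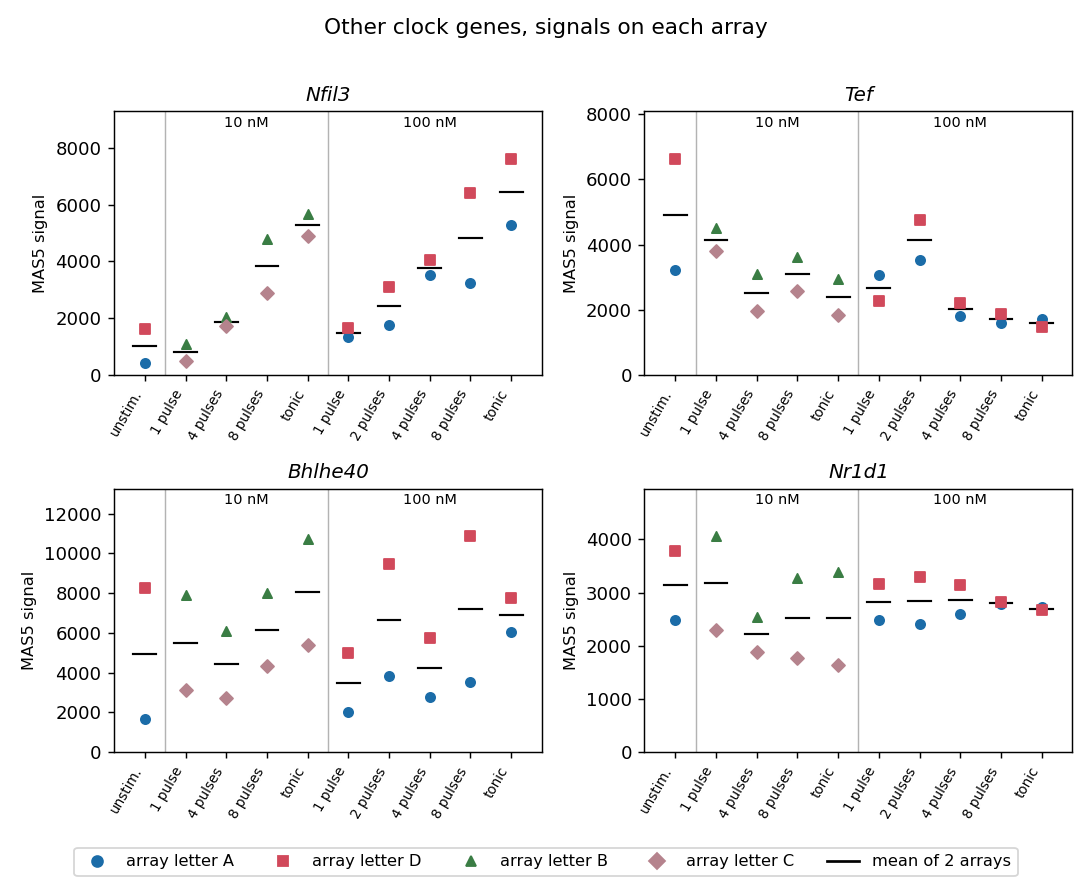
Signal (intensity, linear scale from 0) of Nfil3, Tef, Bhlhe40 and Nr1d1 on all 20 arrays, by group; points are arrays, coloured by the letter of the sample code, and bars are means of the 2 arrays. Nfil3 climbed from 401 and 1634 in unstimulated cells to 5277 and 7619 under tonic 100 nM, whereas the points of Bhlhe40 separate by letter in every group.

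Per1 was set beside 12 tested early response genes, such as Fos, Egr1 and Nr4a1, which rise soon after receptor stimulation through cAMP or serum response elements. Over the 100 nM patterns 11 of these 12 rose, beside 6.37% of all probe sets, with a median of 1.60, against 0.74 for Per1. Their slope with pulse number at 100 nM was positive and called for 12 of 12, beside 3.67% of all probe sets, with a median of 0.60 for each doubling against 0.41 for Per1. After 1 pulse of 100 nM limma called 0 of the 12 and 0% of all probe sets, and Per1 was not called either. At an unadjusted p under 0.05 were 2 of the 12, beside 664 of 8491 probe sets. The list was chosen with earlier results of these data known, so its counts describe these genes and are no independent test. The difference between Per1 and these genes was not tested.

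Across the 10 group means the 4 genes other than Clock varied together. Pearson's r was 0.93 between Per1 and Cry1, 0.92 between Per1 and Per2, -0.94 between Per1 and Dbp, and -0.96 between Dbp and Cry1. It was 0.86 between Per2 and Cry1 and -0.87 between Per2 and Dbp. Clock lay between -0.36 and 0.41 with the other 4. Group means spanned 1.79 on the log2 scale for Dbp, 1.45 for Per1, 1.23 for Cry1, 0.95 for Per2 and 0.65 for Clock. The same likeness was computed to 6215 other genes, as a description over 10 points that share dose, letter and pulse number. The 3 most like Per1 were Rnft1 (0.978), Nfe2l2 (0.977) and Cavin3 (0.974); those most like Per2 were Cpe (0.981), Sec11c (0.961) and Itgb1 (0.950). For Dbp they were Ttc30b (0.993), Slc11a2 (0.991) and Gart (0.985), for Cry1 Fndc3a (0.990), Idi1 (0.988) and Tpm1 (0.987), and for Clock Arid2 (0.948), Baz1b (0.947) and Pdcd4 (0.946).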

How the data were processed

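Total RNA of perifused LbetaT2 cells was measured on 20 Affymetrix arrays, 10 groups of 2, mapped by their titles. The authors deposited probe set signals, intensities on a linear scale, made with MAS5 per the submitters' processing notes; the MAS5 version is not given here. Tests ran on 8491 of 12488 probe sets, without 66 controls, whose signal passed 427 (40th percentile) on at least 2 arrays. Values were taken as log2(signal + 166.8), the constant being the 25th percentile. A model with 1 mean per group was fitted in limma 3.58.1 (R 4.3.3) with an intensity trend in eBayes, 10 residual and 8.2 prior degrees of freedom, and 22 comparisons were tested, each adjusted over its 8491 probe sets. The procedure was tested on simulated data. No depth exists for arrays; their number limits the precision.

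The 5 genes and the lists were chosen with earlier results of these data known. All member probe sets are named, with every other clock gene past the threshold in a comparison described and the 3 genes most like each member; where a gene has several probe sets, the brightest on average stands for it. The annotation ties 10833 probe sets to 1 symbol, 396 to several and 1193 to none.

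Pairing by letter was checked from the correlation of deviations from group means. It exceeded 0.1 between 6 of 6 pairs of 10 nM groups (B and C, 0.13 to 0.35), which counts as pairing. For A and D it did so in 14 of 15 (0.08 to 0.32), which by this rule does not. The lowest value of 0.08 decided this, so pairing of A and D is not excluded. The main tests leave the letter out, and calls gained with the letter as a block are given below. Alternatives covered scaling, filter, added constant, intensity trend, letter as a block, the groups fitted, the labels and each array left out.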

Additional observations from a re-analysis of the deposited data

How the results depend on the processing

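For the 5 genes in 8 comparisons, 1262 refits gave 1202 values on the same side of the threshold, 37 that lost and 23 that gained a call. In 0 refits did a value called in either fit change direction. A change of direction where neither fit made a call counts among the 1202. By this count 12 of the 40 results changed in any refit. Values are log2 differences or slopes per doubling, with adjusted p-values in parentheses. Letters as a replicate block: Per1 over all 100 nM patterns 0.74 (0.00885 fixed, 0.0254 random), Dbp and Cry1 slopes at 100 nM -0.35 (0.000503, 0.0125) and 0.21 (0.014, 0.0288), and at 10 nM -0.39 (0.000516, 0.0159) and 0.26 (0.0111, 0.0234), all gained, while Per1 between doses was lost with the random block (0.51, 0.0907); the fixed block lost 0 of 12 member calls. Letters A and D did not meet the pairing rule. Only the groups compared in the fit called the Dbp slope at 100 nM (-0.35, 0.0378). Groups from the characteristics gave Dbp -0.32 (1) and Cry1 0.39 (1) over all 100 nM patterns, Per1 slope 0.09 (1), and Per1 0.13 (0.886) and Cry1 0.20 (0.741) between doses; Tef reversed to 0.06 after 8 pulses and 0.07 under tonic 100 nM. Samples with agreeing labels gave Dbp -1.13 (0.162), Per1 slope 0.44 (0.152), and between doses Per1 0.19 (0.526), Cry1 0.25 (0.202) and Dbp -0.87 (0.0279). No filter gave the Per1 slope 0.41 (0.0681) and Per1 between doses 0.51 (0.0812); no intensity trend gave 0.41 (0.0558) and 0.51 (0.0632). Equal array medians gave Per1 0.47 (0.0609) and Dbp -0.53 (0.0373) between doses, and a stricter filter Dbp -0.49 (0.0392). Without the 3 arrays of raised Gapdh ratio, an alternative chosen after seeing the data, the Per1 slope was 0.38 (0.211), and between doses Per1 was 0.35 (0.384) and Cry1 0.43 (0.0814). Leaving out each array in turn gave, over all 100 nM patterns, 0.19 to 1.28 for Per1, -1.40 to -0.96 for Dbp and 0.45 to 1.16 for Cry1; slopes of 0.38 to 0.44 for Per1 at 100 nM and -0.50 to -0.28 for Dbp at 10 nM; and between doses 0.40 to 0.63 for Per1, -0.61 to -0.37 for Dbp and 0.18 to 0.31 for Clock. Of 16 member calls over all comparisons, 9 were kept with no filter, 9 with no intensity trend, 7 without unstimulated array A and 12 without unstimulated array D. Over all probe sets the 100 nM comparison called 1207, against 1872 with the letter as a fixed block, 493 and 365 without unstimulated array A or D, 156 with agreeing labels and 0 with groups from the characteristics. The signals carry no read depth, and 2 arrays a group limit every value.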

Other observations

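The letter of the sample code went with the level of several clock genes within groups. Array D was above array A in 6 of 6 groups for Per1, Nfil3 and Bhlhe40, with median log2 differences of 0.36, 0.64 and 1.26, and for 1 of the Csnk1d sets (0.35); 4.76% of the 8491 tested probe sets had this order. Array C was below array B in 4 of 4 groups at 10 nM for Dbp, Cry1, Nfil3, Bhlhe40, Nr1d1 and Tef, with median differences of -0.88, -0.21, -0.47, -1.04, -0.80 and -0.54. Tested sets of Cry2 (-0.30) and Ppara (-0.14) and 2 sets of Csnk1d (-0.23 and -0.51) had the same order, as did 17.2% of the tested probe sets. Bhlhe40 had signals of 7925 (B) and 3113 (C) after 1 pulse of 10 nM and of 10722 and 5376 under tonic 10 nM, and Nr1d1, the REV-ERB alpha repressor, had 4057 and 2289 and then 3391 and 1639. Clock and Per2 showed no such order, with D above A in 3 of 6 groups each. What the letters stand for is not given in the labels, and these differences were not tested.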
